A study of Mus musculus with 10 samples.

Results

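Fc receptors bind the constant end of antibodies. The genes here encode the mouse Fc gamma receptors, the signalling chain that several share, the neonatal Fc receptor and an Fc receptor-like protein. Of the 56884 genes in the count table, 7 were chosen by symbol, and each was matched to a single row through its Ensembl identifier: Fcgr1, Fcgr2b, Fcgr3, Fcgr4, Fcer1g, Fcgrt and Fcrls. Their values were followed in hippocampus of 10 ovary-intact female P301S mice, 5 with an empty (void) SILASTIC implant and 5 with an implant holding 10 mm of dihydrotestosterone (DHT) powder, an androgen that aromatase cannot turn into estrogen. Treatment began at about 6 months of age and ran for 12 weeks, with implants replaced at regular intervals. Tissue was taken at 9 to 9.5 months after perfusion. All 10 mice, controls included, carried the PS19 transgene, which drives human 1N4R Tau with the P301S mutation from the mouse prion promoter and is labelled hTau. No mouse without mutant Tau was in the data, so every value below describes DHT on a Tau transgenic background. Each mouse gave 1 library of poly(A) RNA.

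The Fc gamma receptors sit on myeloid cells, which in brain are mainly microglia and the macrophages of the meninges, vessels and choroid plexus. Fcgr1, Fcgr3 and Fcgr4 encode activating receptors: on binding IgG complexes they signal through the gamma chain, the product of Fcer1g, whose immunoreceptor tyrosine-based activation motif (ITAM) is phosphorylated by Src family kinases and then recruits Syk, leading to engulfment and the oxidative burst. Fcgr2b encodes the inhibitory receptor, which carries an inhibitory motif (ITIM) in its own tail and recruits phosphatases that restrain the same cascade. Fcgrt encodes the heavy chain of the neonatal Fc receptor, which pairs with beta-2 microglobulin and recycles IgG and albumin. Fcrls encodes an Fc receptor-like protein known as a marker of resident microglia.

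Reference sequence shows the split between activation and inhibition at the level of the coding DNA. Both stretches below were read from the principal transcripts in GENCODE M21 (build GRCm38) and are shown because they hold the motifs that separate the signalling chain from the inhibitory receptor. In Fcer1g (chr1:171229572-171234365, minus strand) the stretch spans coding bases 193 to 237, with the codons of both tyrosine-containing parts in capitals and 7 codons between them. In Fcgr2b (chr1:170958617-170976547, minus strand) it spans coding bases 949 to 966, all within the inhibitory motif.
Fcer1g ITAM: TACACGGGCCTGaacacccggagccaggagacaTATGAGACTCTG
Fcgr2b ITIM: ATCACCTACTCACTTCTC
A codon search for the ITAM pattern, with 6 to 10 codons between its parts, found it in 1 of the 7 principal coding sequences, that of Fcer1g. The shorter ITIM pattern also matched parts of Fcgr1, Fcgr4, Fcer1g and Fcgrt, so a match alone does not mark an inhibitory tail.

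Total counts per library ran from 27188854 to 47113661 in void mice and from 33523527 to 45947784 in DHT mice. Levels are given as CPM, counts scaled to a common library size with TMM factors, and a gene was said to have risen or fallen where edgeR's quasi-likelihood test gave a Benjamini-Hochberg adjusted p under 0.05 over the 17622 genes tested. The library names carry position numbers of 4 to 11 for void and 18 to 23 for DHT mice, so position and treatment cannot be told apart. Choroid plexus markers also moved with treatment. Summed CPM of the 12 choroid plexus markers ran from 360 to 3273 in void mice and from 3911 to 5744 in DHT mice. Of the 12, 4 rose, against 5.22% of all genes tested. All 12 had a positive log2 fold change, with a median of 2.11, and an unadjusted p under 0.05 in edgeR. With DESeq2, the tool the study used, 6 of the 12 passed. Microglia markers were present in all libraries, with summed CPM over 12 identity genes of 493 to 560 in void mice and 670 to 943 in DHT mice. In bulk tissue, more cells of a type and more RNA per cell cannot be told apart.

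Of the 7 Fc receptor genes, 4 rose with DHT, none fell and 3 did not pass the test. Over all genes tested, 5.22% rose and 0.261% fell, and the median log2 fold change was 0.01. The genes that rose were the activating receptors Fcgr1, Fcgr3 and Fcgr4 and the gamma chain Fcer1g, while the inhibitory Fcgr2b, the recycling receptor Fcgrt and Fcrls did not pass. Fcgr4 entered the test only through its DHT values, since 5 of 5 DHT libraries but 1 of 5 void libraries reached about 0.292 CPM, the level the expression filter asks for. With a log2 fold change over 1 also required, 2 of the 7 passed (Fcgr1 and Fcgr4) against 2.17% of all genes. In 3 of the 7 (Fcgr1, Fcgr4 and Fcer1g) every DHT mouse lay above every void mouse, against 5.39% of all genes.

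**Figure D1:**
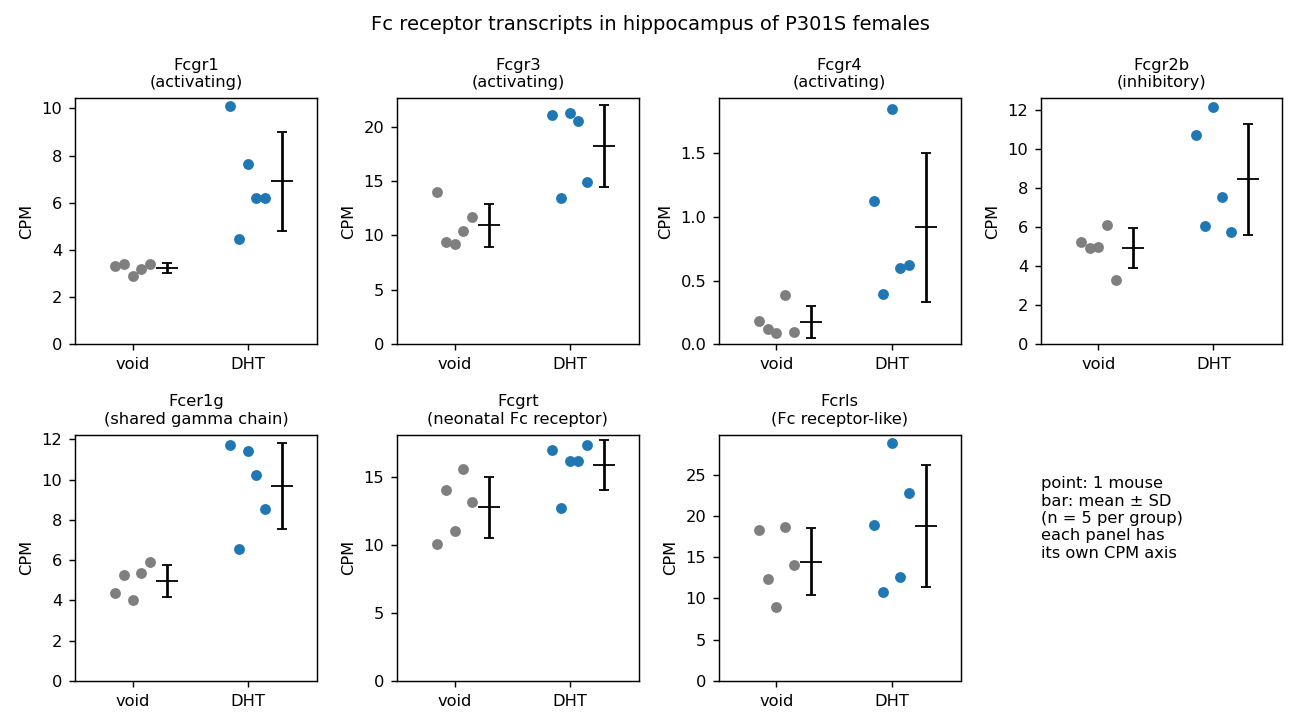
CPM of the 7 Fc receptor genes, 1 panel per gene with its own axis from 0, 1 point per mouse and the mean ± SD beside each group of 5. Void and DHT points do not overlap for Fcgr1, Fcgr4 and Fcer1g, overlap for Fcgr3 by a single pair of mice, and overlap more widely for Fcgr2b, Fcgrt and Fcrls.

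Fcgr1, the high-affinity IgG receptor also called CD64, had little spread in void mice and no overlap between groups. In void replicates 10, 11, 4, 5 and 9 its level was 3.32, 3.42, 2.88, 3.20 and 3.38 CPM. In DHT replicates 1, 2, 3, 5 and 6 it was 10.1, 4.47, 7.65, 6.19 and 6.19 CPM. The lowest DHT mouse, replicate 2, was above the highest void mouse, and DHT replicate 1 was the highest of all. Group means were 3.24 ± 0.219 and 6.92 ± 2.10 CPM (SD, n = 5 each). The log2 fold change was 1.10 ± 0.19 (SE; 95% interval 0.690 to 1.503), and edgeR gave an adjusted p of 0.00948. A two-sided exact permutation test of log2 CPM gave p = 0.00794, the smallest that 5 mice against 5 allow. By p-value Fcgr1 ranked 138 of 17622 genes. The call held in all 10 fits that left out 1 mouse, with log2 fold changes of 0.89 to 1.22.

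Fcgr3, the low-affinity activating receptor also called CD16, was the most abundant of the 3 activating receptors per kilobase of exon. Void mice, in the same replicate order, had 14.0, 9.38, 9.20, 10.4 and 11.7 CPM. DHT mice had 21.1, 13.4, 21.3, 20.5 and 14.9 CPM. Void replicate 10 was above DHT replicate 2, and the other 4 DHT mice were above every void mouse. Means of 10.9 ± 1.97 and 18.2 ± 3.77 CPM (SD, n = 5 each) gave a log2 fold change of 0.74 ± 0.16 (SE), with an adjusted p of 0.0195 from edgeR and p = 0.0159 from the two-sided exact permutation test. The call held in 5 of the 10 fits that left out 1 mouse, with adjusted p of 0.00874 to 0.0441. Without void replicate 11, void replicate 4, DHT replicate 1, DHT replicate 3 or DHT replicate 5 the adjusted p became 0.0719, 0.0577, 0.0654, 0.0577 and 0.0503, with log2 fold changes of 0.66, 0.68, 0.65, 0.66 and 0.66.

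Fcgr4, an activating receptor of intermediate affinity for some IgG subclasses, had the lowest level and the largest fold change of the family. Void mice held 3 to 12 counts and DHT mice 16 to 88. As CPM these were 0.184, 0.120, 0.0846, 0.383 and 0.0931 in void replicates 10, 11, 4, 5 and 9. In DHT replicates 1, 2, 3, 5 and 6 they were 1.12, 0.395, 1.84, 0.599 and 0.625. The groups did not overlap, but the gap between void replicate 5 and DHT replicate 2 was narrow. The log2 fold change was 2.46 ± 0.52 (SE; 95% interval 1.33 to 3.58), a 5.48-fold difference, with an adjusted p of 0.0187 from edgeR and p = 0.00794 from the two-sided exact permutation test. By size of fold change Fcgr4 ranked 30 among all genes tested. Leaving out void replicate 11, void replicate 4 or DHT replicate 1 raised the adjusted p to 0.0642, 0.0587 and 0.0509, with log2 fold changes of 2.33, 2.24 and 2.34. Requiring at least 10 counts in every library removed Fcgr4 from the test.

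The proximal promoters of these receptors are shown next, because Fcgr1 and Fcgr4 had the largest fold changes in the family. RefSeq windows of 300 bases around each start (GRCm38.p6; 250 before and 50 after) were matched for all 7 genes and searched on both strands for the interferon gamma-activated site TTCNNNGAA, the core of the PU.1 and ETS site GAGGAA and the interferon response pattern, a direct repeat of GAAA with a spacer of 2 bases. The androgen response element was searched as an inverted repeat of AGAACA with a spacer of 3 bases. A direct repeat of AGGTCA with a spacer of 1 base, and AGGTCA alone, were also searched. The 150 bases before the start of Fcgr1 are chr3:96293970-96294119 on the minus strand, and those of Fcgr4 are chr1:171018776-171018925 on the plus strand. Capitals mark the interferon gamma-activated site at -109 to -101 and the ETS core at -55 to -50 in Fcgr1, and the ETS core at -22 to -17 in Fcgr4.
Fcgr1 promoter: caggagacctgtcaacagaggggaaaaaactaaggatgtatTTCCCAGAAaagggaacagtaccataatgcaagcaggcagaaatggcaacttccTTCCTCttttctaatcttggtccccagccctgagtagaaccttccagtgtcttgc
Fcgr4 promoter: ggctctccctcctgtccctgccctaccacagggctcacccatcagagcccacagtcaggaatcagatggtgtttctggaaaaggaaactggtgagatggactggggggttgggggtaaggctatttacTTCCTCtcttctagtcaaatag
The interferon gamma-activated site was found in Fcgr1 alone among the 7, and in 8.3% of 32851 promoter windows. The ETS core was found in Fcgr1, Fcgr3, Fcgr4 and Fcrls and in 28.3% of windows. The interferon response pattern was found in Fcgr4 at -73 to -64, in lower case above, and in 3.44% of windows. The full androgen response element was found in none of the 7 and in 0.00913% of windows. The direct repeat of AGGTCA was also found in none of the 7, and in 0.0396% of windows. AGGTCA alone was found in Fcgr2b at -211 to -206 and in 16.3% of windows. These matches describe letters in the reference, and binding was not measured.

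Fcgr2b, the inhibitory receptor, had higher means with DHT but did not pass the test. Void mice had 5.24, 4.94, 5.01, 6.14 and 3.32 CPM. DHT mice had 10.7, 6.07, 12.2, 7.54 and 5.78 CPM. DHT replicates 2 and 6 lay below the highest void mouse, replicate 5, and the other 3 DHT mice lay above all void mice. Means were 4.93 ± 1.02 and 8.46 ± 2.86 CPM (SD, n = 5 each), and the log2 fold change was 0.78 ± 0.23 (SE; 95% interval 0.29 to 1.27) with an adjusted p of 0.0707 from edgeR. The two-sided exact permutation test gave p = 0.0238. The gene lay near the threshold: DESeq2 gave an adjusted p of 0.0197, and leaving out DHT replicate 2 or DHT replicate 6 gave 0.0438 and 0.0427 in edgeR with log2 fold changes of 0.88 and 0.89. Its fold change of 0.78 was larger than the 0.74 of Fcgr3, so the 2 genes fell on different sides of the threshold with nearly the same estimate, and a difference between them was not tested.

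The balance of activating to inhibitory receptor was therefore described within each mouse, as log2 CPM of the activating gene minus log2 CPM of Fcgr2b, with no test since the genes were chosen with results known. For Fcgr3 this log2 ratio was 1.15 ± 0.439 in void and 1.14 ± 0.264 in DHT mice, and no DHT mouse exceeded the highest void mouse. For Fcgr1 it was -0.574 ± 0.368 in void and -0.275 ± 0.299 in DHT mice, and 1 of 5 DHT mice exceeded the void range. For Fcgr4 it was -4.56 ± 0.506 in void and -3.26 ± 0.415 in DHT mice (SD, n = 5 each), and 5 of 5 DHT mice lay above the highest void value of -3.82, the lowest DHT value being -3.77. The group means of the Fcgr3 ratio differed by -0.01 and those of the Fcgr4 ratio by 1.304 on the log2 scale, and the Fcgr4 ratio in void mice rests on 3 to 12 Fcgr4 counts. Fcgr2b and Fcgr3 are close copies in part of their sequence: the longest stretch they share in GENCODE M21 transcripts was 129 bases, and 2.54% of the 100-base windows of Fcgr3 and 1.4% of those of Fcgr2b occurred in another gene, against 0 for the other 5 genes. How reads matching both were counted is not given in the sources used here.

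**Figure D2:**
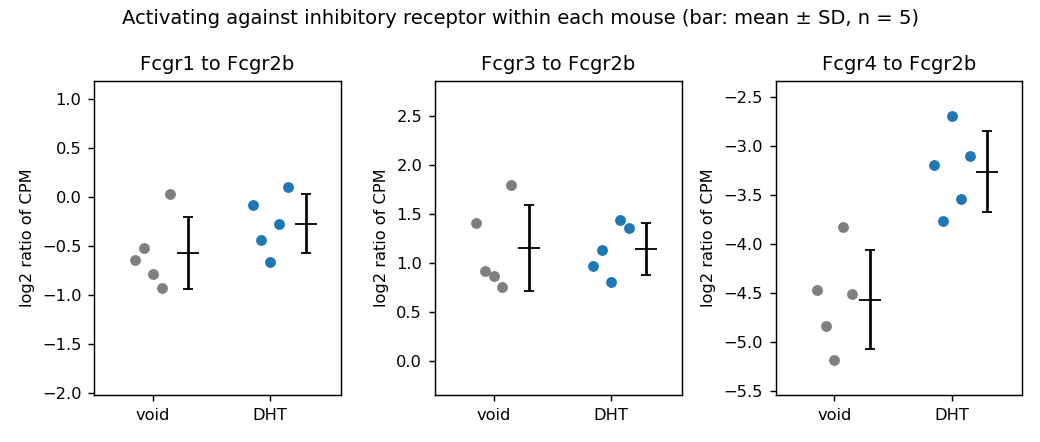
Log2 ratio of CPM of each activating receptor to Fcgr2b within each mouse, 1 point per mouse with mean ± SD (n = 5 per group), on axes of equal span. Void and DHT points share a range for Fcgr3, mostly share it for Fcgr1, and separate narrowly for Fcgr4, where the highest void mouse is at -3.82 and the lowest DHT mouse at -3.77.

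Fcer1g, the signalling chain, rose with DHT and its groups did not overlap. Void mice had 4.35, 5.24, 3.996, 5.34 and 5.93 CPM. DHT mice had 11.7, 6.54, 11.4, 10.2 and 8.54 CPM. All 5 DHT mice were above all 5 void mice, with DHT replicate 2 again the lowest of its group. Means of 4.97 ± 0.783 and 9.68 ± 2.15 CPM (SD, n = 5 each) gave a log2 fold change of 0.96 ± 0.17 (SE; 95% interval 0.60 to 1.33), with an adjusted p of 0.0099 from edgeR and p = 0.00794 from the two-sided exact permutation test. The call held without any single mouse, with log2 fold changes of 0.85 to 1.08. Fcer1g lies on chromosome 1 beside the low-affinity receptors, in the order Fcgr2b, Fcgr4, Fcgr3 and Fcer1g, with gaps of 42372, 21412 and 164636 bases in GRCm38, whereas Fcgr1 (chr3:96282909-96293969) and Fcrls (chr3:87250758-87263738) lie on chromosome 3 and Fcgrt (chr7:45092990-45103851) on chromosome 7. The gamma chain also serves other receptors, and of 9 of these only Lilra5 and Oscar had enough counts to be tested. Neither passed the edgeR test (0 of 2, with 1 at an unadjusted p under 0.05, and 0 of 2 in DESeq2). Lilra5 had 0.184 ± 0.150 and 0.428 ± 0.186 CPM in void and DHT mice (adjusted p = 0.159, edgeR), and Fcer1a, the IgE-binding chain of mast cells, had 0 counts in all 10 libraries.

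Fcgrt, the neonatal Fc receptor, did not pass the test. Void mice had 10.1, 14.1, 11.04, 15.6 and 13.2 CPM. DHT mice had 17.0, 12.8, 16.2, 16.2 and 17.4 CPM. The 4 DHT mice other than replicate 2 lay above all void mice, while replicate 2 lay inside the void range. The log2 fold change was 0.32 ± 0.13 (SE; 95% interval 0.04 to 0.59) with an adjusted p of 0.21 from edgeR, and the two-sided exact permutation test gave p = 0.0556. Its partner B2m, the light chain that is also part of every classical MHC class I molecule, rose from 70.2 ± 8.71 to 135 ± 34.0 CPM (SD, n = 5 each; log2 fold change 0.94, adjusted p = 0.00931, edgeR) with no overlap between groups. Whether the changes of Fcgrt and B2m differ was not tested.

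Fcrls, the Fc receptor-like marker of microglia, had the largest SD in CPM of the 7 in both groups, at 4.09 in void and 7.41 in DHT mice, and did not pass the test. Void mice had 18.3, 12.4, 8.96, 18.7 and 14.1 CPM. DHT mice had 18.9, 10.8, 28.8, 12.6 and 22.8 CPM. DHT replicates 2 and 5 lay inside the void range and the other 3 DHT mice lay above it. The log2 fold change was 0.38 ± 0.27 (SE; 95% interval -0.21 to 0.97), with an adjusted p of 0.543 from edgeR and p = 0.333 from the two-sided exact permutation test. An interval of this width leaves both no change and a rise close to that of Fcer1g within it.

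Levels were compared between genes per kilobase of merged exon in GENCODE M21. In void mice Fcgr3, Fcrls, Fcgrt and Fcer1g were at 6.29, 6.20, 6.09 and 5.69 CPM per kilobase, with overlapping ranges between each pair of neighbours. Fcgr1 at 1.25, Fcgr2b at 0.851 and Fcgr4 at 0.138 CPM per kilobase followed, each below its upper neighbour without overlap. In DHT mice Fcer1g stood first at 11.1 CPM per kilobase, followed by Fcgr3 at 10.5, Fcrls at 8.05 and Fcgrt at 7.58, again with overlapping ranges. Fcgr1 at 2.67, Fcgr2b at 1.46 and Fcgr4 at 0.730 CPM per kilobase kept their order. On this measure Fcgr1 exceeded Fcgr2b, and Fcgr2b exceeded Fcgr4, in 5 of 5 DHT mice. The order of Fcgr1 and Fcgr2b rests on the division by merged exon length, 2589 bases for Fcgr1 and 5790 for Fcgr2b. In CPM the means of Fcgr2b were the higher, at 4.93 against 3.24 in void mice and 8.46 against 6.92 in DHT mice. By mean per kilobase, the signalling chain was thus below Fcgr3, Fcrls and Fcgrt in void mice and above all 3 in DHT mice. These ranges overlap between neighbours, and in CPM without the division by length its mean was below all 3 in both groups.

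The level of microglial identity genes was used as a scale for the family. Of 12 identity markers 4 rose, with a list median log2 fold change of 0.39, below that of each activating receptor. Csf1r, the receptor for the microglial survival factors, had a log2 fold change of 0.55 (adjusted p = 0.00965, edgeR). Mean log2 CPM over the 12 markers was 4.89 ± 0.0714 in void and 5.27 ± 0.197 in DHT mice (SD, n = 5 each). Within groups most of the family followed this mean weakly or not at all. After removal of group means, Pearson's r with it was 0.56 for Fcgr1, 0.29 for Fcgr3, 0.23 for Fcgr2b and 0.14 for Fcer1g. For Fcgr4, Fcgrt and Fcrls r was -0.03, -0.10 and -0.15. Against the marker mean in the same mouse, Fcgr1 was higher in DHT by 0.65 on the log2 scale, with 5 of 5 DHT mice above the void range. Fcgr4 was higher by 1.66 and Fcer1g by 0.56, each with 4 of 5 DHT mice above the void range. Fcgr2b and Fcgr3 were higher by 0.36 and 0.35, with 1 and 2 of 5 above, while Fcgrt and Fcrls differed by -0.05 each. Libraries were also scaled on the identity markers instead of on all genes, which moved the median of all genes to -0.36. In that fit Fcgr1 (0.70), Fcgr4 (2.09) and Fcer1g (0.58) passed the edgeR test. However, 10290 of the 17622 genes then had an unadjusted p under 0.05, and 7878 passed as lower. The same adjusted p therefore asked for less evidence per gene than in the main fit, and calls in the 2 fits are not equivalent. Fcgr3 fell to 0.36 with an adjusted p of 0.0716, and Fcgrt changed sign to -0.07 with an adjusted p of 0.734.

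**Figure D3:**
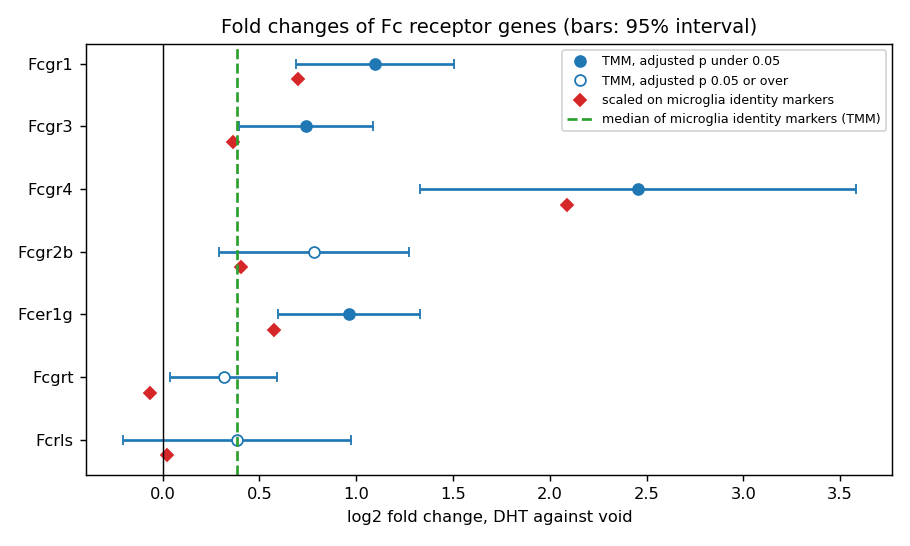
Log2 fold changes of the 7 genes, DHT against void, with 95% intervals from edgeR; filled circles passed the test and open circles did not. Red diamonds give the same genes scaled on microglia identity markers, where Fcgr1, Fcgr4 and Fcer1g stay at 0.70, 2.09 and 0.58 and Fcgrt and Fcrls lie close to 0; the dashed line is the identity markers' median of 0.39.

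Genes of the cascade below the activating receptors rose in part. Of 26 ITAM kinases and adaptors 11 rose and none fell, with a median log2 fold change of 0.55. Tyrobp, the other ITAM adaptor of microglia, had 8.40 ± 1.63 CPM in void and 20.8 ± 5.28 CPM in DHT mice, a log2 fold change of 1.31. The Src family kinase Fgr rose by 3.003 on the log2 scale from 0.211 ± 0.147 CPM, and the membrane adaptor Lat2 rose by 1.26 (adjusted p = 0.0067, 0.00761 and 0.0117 for Tyrobp, Fgr and Lat2, edgeR). Like Fcgr4, Fgr entered the test only through its DHT values, with 3 to 14 counts in void libraries and 1 of 5 void against 5 of 5 DHT libraries at the filter's level. The broadly expressed Cbl and Fyn, at 153 and 143 CPM in void mice, had log2 fold changes of -0.05 and 0.02. Syk and Lyn, named here after their values were seen because they carry the first steps, had log2 fold changes of 0.44 (adjusted p = 0.15) and 0.60 (adjusted p = 0.0148) in edgeR.

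The machinery of engulfment and the oxidase was counted next. Of 20 phagocytic cup and oxidase genes 14 rose and none fell, with a median log2 fold change of 0.79. Rac2, a GTPase of blood-derived and microglial cells, rose by 1.11, its activator Dock2 by 0.95, the myosin Myo1f by 1.38 and the oxidase subunit Ncf4 by 1.39 on the log2 scale (adjusted p = 0.00761 for the first 3 and 0.00965 for Ncf4, edgeR), each with no overlap between groups. The ubiquitous Cfl1 and Rac1, at 467 and 318 CPM in void mice, had log2 fold changes of 0.04 and 0.05. Below the inhibitory receptor, of 9 phosphatases and inhibitory adaptors 3 rose and none fell, with a median of 0.13. Those that rose were the phosphatases Ptpn6 (SHP-1; 1.22, adjusted p = 0.0067) and Inpp5d (SHIP1, the main effector of Fcgr2b; 0.59, adjusted p = 0.013) and the adaptor Dok1 (0.93, adjusted p = 0.0176), and the widely expressed Ptpn11 was at 0.11 (adjusted p = 0.423, edgeR).

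**Figure D4:**
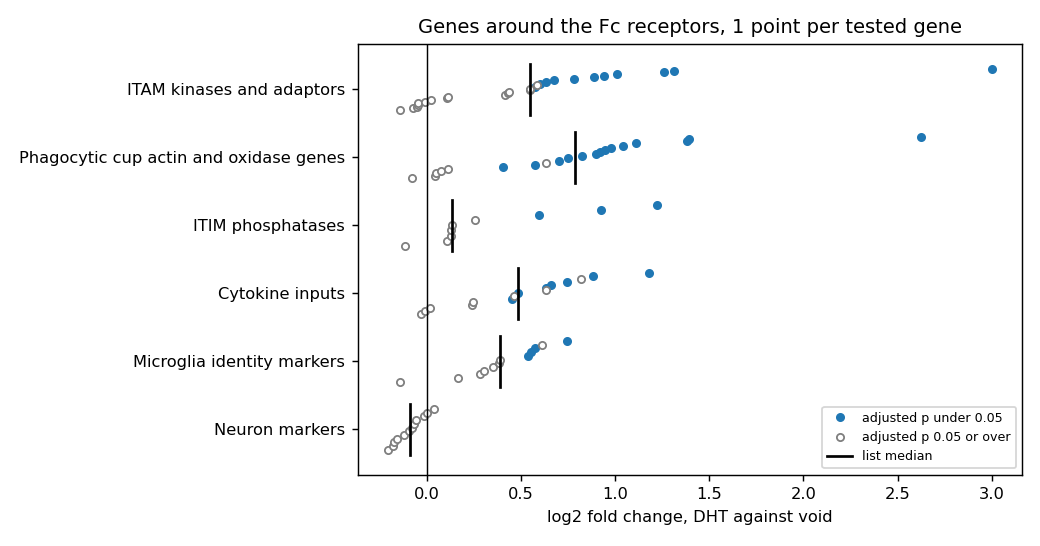
Log2 fold changes of the tested genes in 6 lists, 1 point per gene; filled points passed the edgeR test and black lines mark list medians. Medians lie at 0.55 for the ITAM list, 0.79 for the phagocytic cup and oxidase list, 0.13 for the ITIM list and 0.39 for microglia identity markers, and 0 of 12 neuron markers passed.

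Genes that are known to set Fc receptor transcription were also examined. Of 18 cytokine, receptor and transcription factor genes 15 could be tested, 7 rose and none fell, with a median log2 fold change of 0.48. Irf8, a myeloid partner of PU.1 and the interferon pathway, rose from 4.76 ± 0.466 to 10.8 ± 2.56 CPM (SD, n = 5 each; log2 fold change 1.18, adjusted p = 0.0067, edgeR) with no overlap between groups. The receptors Il10ra, Tgfbr2 and Il4ra rose by 0.75, 0.66 and 0.48 (adjusted p = 0.008, 0.00927 and 0.0154, edgeR). The widely expressed Jak1 and Ifngr2, at 265 and 65.0 CPM in void mice, had log2 fold changes of -0.03 and -0.01.

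Transcripts of the ligands, the antibody chains, were mostly too low to test. Of 13 immunoglobulin chain genes 4 could be tested and none passed the edgeR test, with 2 at an unadjusted p under 0.05 and 1 of 4 passing in DESeq2. Ighm, the heavy chain of IgM, was the most abundant at 14.2 ± 2.05 and 21.6 ± 8.46 CPM (log2 fold change 0.61, adjusted p = 0.169, edgeR). Igkc, the kappa light chain, ran from 0.0738 to 0.389 CPM in void mice and from 0.271 to 9.49 CPM in DHT mice, so its log2 fold change of 3.58 (adjusted p = 0.0533) rested on a wide spread within DHT. Ighg2c, an IgG heavy chain, was at 0.480 ± 0.179 and 0.315 ± 0.171 CPM (adjusted p = 0.561, edgeR). Tissue IgG itself was not measured. Of 10 other Fc receptors and Fc receptor-like genes Trim21, the cytosolic antibody receptor, was the only one with enough counts, and it rose from 2.64 ± 0.376 to 4.52 ± 1.15 CPM (log2 fold change 0.78, adjusted p = 0.025, edgeR).

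Markers of other cells that can carry Fc receptors were counted as whole lists. Summed CPM of 8 border macrophage markers ran from 2.51 to 16.0 in void and from 5.78 to 13.2 in DHT mice, with 0 of 7 tested genes passing in edgeR (1 at an unadjusted p under 0.05, and 0 in DESeq2). Monocyte and neutrophil markers summed to 0.639 to 2.05 CPM in void and 1.24 to 2.38 CPM in DHT mice over 8 genes, with 0 of 2 tested passing in edgeR (0 at an unadjusted p under 0.05, and 0 in DESeq2). B cell and plasma cell markers summed to 0.996 to 1.68 and 1.58 to 2.95 CPM over 7 genes, with 0 of 2 passing (2 at an unadjusted p under 0.05, and 0 in DESeq2). Of the 9 mast cell and NK cell markers only Kit, which neurons also express, was tested (-0.19, adjusted p = 0.311, edgeR, and 0 in DESeq2; unadjusted p also not under 0.05). Endothelial cells, which carry Fcgrt, had 1 of 10 markers pass (Slco1c1, 0.54, adjusted p = 0.0262), and neurons 0 of 12 (1 at an unadjusted p under 0.05, and 0 in DESeq2).

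Choroid plexus content separated the groups and was set beside each receptor. After removal of group means, Pearson's r with the mean choroid marker level over the 10 mice was 0.07 for Fcgr1, 0.20 for Fcgr3, 0.04 for Fcer1g and -0.34 for Fcgr4. It was -0.35 for Fcgr2b, -0.34 for Fcgrt and -0.16 for Fcrls. All come from the same libraries and are given as a description. The mean choroid log2 CPM ran from 2.21 to 6.23 in void mice and from 6.56 to 7.30 in DHT mice. These r values therefore rest mainly on the void mice and say little about differences among DHT mice. For 10 of the 12 choroid markers every DHT mouse lay above every void mouse. Summed over the 12, the highest void mouse, replicate 9, had 3273 CPM and the lowest DHT mouse 3911 CPM. Ttr, a defining transcript of choroid plexus epithelium, was 1 of the markers that overlapped, with 1289 to 1728 CPM in DHT mice. Void replicate 9 had 1335 CPM of Ttr and void replicate 11 had 62.5 CPM. These 2 void mice had 3.38 and 3.42 CPM of Fcgr1, 5.93 and 5.24 CPM of Fcer1g, 11.7 and 9.38 CPM of Fcgr3 and 0.0931 and 0.120 CPM of Fcgr4. Void replicate 5, with 65.1 CPM of Ttr, had 3.20, 5.34, 10.4 and 0.383 CPM of the same genes in that order. With the choroid marker level as a covariate in edgeR the log2 fold changes were 1.02 for Fcgr1, 0.92 for Fcer1g, 0.61 for Fcgr3 and 3.31 for Fcgr4, but standard errors grew and no gene of the 17622 passed the test. In that fit 1227 genes, 6 of the 7 Fc receptor genes among them, had an unadjusted p under 0.05.

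The 7 genes varied together between mice of the same group. After removal of group means, all 21 pairs had a positive Pearson's r over the 10 mice, with a median of 0.55, and the highest were 0.84 for Fcgr2b with Fcgr4, 0.82 for Fcgr1 with Fcer1g and 0.81 for Fcgr4 with Fcrls. The lowest was 0.03 for Fcgr3 with Fcgrt. DHT replicate 2 was the lowest DHT mouse for 6 of the 7 genes and DHT replicate 3 the highest for 4, while void replicate 4 was the lowest void mouse for 5. These values come from shared libraries and carry no test. Over all tested genes, Fcer1g was most like Irf1, 4833422C13Rik, Sat2, Srd5a1 and Hfe (r of 0.959 to 0.903), Fcgrt was most like Gstt2, Oip5, Bmp7, Rin3 and Ltbp1 (0.971 to 0.918), and Fcrls was most like Samd4, Gm37805, AC138228.3, H2-K1 and Slc52a3 (0.956 to 0.934). Of these 15 genes Hfe, Bmp7 and H2-K1 rose with DHT, with log2 fold changes of 0.92, 0.72 and 1.16.

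**Figure D5:**
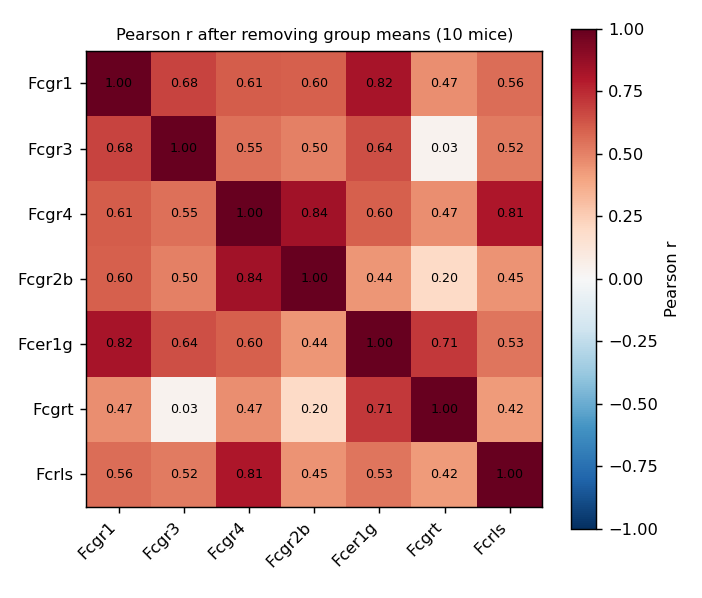
Pearson's r between the 7 genes over 10 mice after each group's mean log2 CPM was removed, on a color scale from -1 to 1. All pairs are positive, the strongest being Fcgr2b with Fcgr4 at 0.84 and the weakest Fcgr3 with Fcgrt at 0.03.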

How the data were processed

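RNA-seq libraries came from whole hippocampus of 10 P301S females, 1 library per mouse. Per the labels and the study's methods, the authors trimmed reads with HTStream, aligned them with STAR 2.7.10b and deposited raw counts per gene. The methods name mm10 and the submitters' processing notes name GRCm39, and 51913 of the 51948 identifiers with a symbol in GENCODE M21 carry a version other than M21's, so M21 and RefSeq (GRCm38) served only for names, exon lengths and sequences. Annotation release, strand setting and treatment of reads matching several genes are not given in the sources used here.

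Groups came from the labels. In edgeR 4.0.16 under R 4.3.3, counts were TMM-scaled and filtered by group (17622 of 56884 genes were tested), and p-values of its quasi-likelihood test were adjusted by Benjamini-Hochberg and called at 0.05. The authors' tool, DESeq2 1.42.0, was an alternative. Single genes were also compared by two-sided exact permutation tests. Log2 CPM used a prior count of 2. The code was tested on simulated data.

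The 7 members and all gene lists were chosen with earlier results of these data known. Named genes are the members, the 4 genes with the lowest p and the 2 with the highest mean CPM in each list, and the 5 genes most correlated with Fcer1g, Fcgrt and Fcrls within groups; others are marked in the text, and some genes the rule names are not reported here. Alternatives were other normalizations, filters, a choroid plexus covariate, scaling on microglia markers, and leaving out each mouse.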

Additional observations from a re-analysis of the deposited data

Results flagged for a closer look

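The Fcgrt level of 12.8 CPM in DHT replicate 2 stood apart from the other 4 DHT mice, which had 16.2 to 17.4 CPM. Its gap to the nearest mouse was 0.742 of the group's range, above Dixon's limit of 0.71 for 5 samples. It was the single such value among 20 groups of values examined, and chance alone gives about 1 in 20.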

How the results depend on the processing

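Of 169 values recomputed under the alternatives, 146 kept their direction and their side of the threshold, or stayed within the spread of the mice. For the number of Fc receptor genes that rose, counts of 3 and 5 were also taken as unchanged from 4 and are among the 146. The number of Fc receptor genes that rose, 4 in edgeR, was 0 with the choroid plexus covariate, 2 when a log2 fold change over 1 was also asked for, and 2 to 5 when a mouse was left out. With the covariate the log2 fold changes were 1.02 for Fcgr1 (adjusted p = 0.552), 0.61 for Fcgr3 (0.694), 3.31 for Fcgr4 (0.548) and 0.92 for Fcer1g (0.552, edgeR), and the cause was not tested. Scaling on microglia markers gave 0.36 for Fcgr3 (adjusted p = 0.0716) and -0.0657 for Fcgrt (adjusted p = 0.734), whose direction reversed. Fcgr2b passed in DESeq2 (0.75, adjusted p = 0.0197) and with no filter beyond 1 count (0.77, adjusted p = 0.0494, edgeR). Leaving out each mouse gave log2 fold changes of 0.89 to 1.22 for Fcgr1, 0.59 to 0.89 for Fcgr2b, 0.65 to 0.84 for Fcgr3, 1.99 to 2.97 for Fcgr4, 0.85 to 1.08 for Fcer1g, 0.24 to 0.40 for Fcgrt and 0.15 to 0.53 for Fcrls, and DHT-minus-void differences in the log2 ratio to Fcgr2b of 0.20 to 0.45 for Fcgr1, -0.11 to 0.15 for Fcgr3 and 1.15 to 1.49 for Fcgr4. The number was 2 without void replicate 11, void replicate 4 or DHT replicate 1, when Fcgr3 and Fcgr4 both missed the threshold. Over all genes, 351 to 1072 rose when a mouse was left out against 920 with all mice, 561 rose and 7878 fell under microglia scaling, and 1186 rose and 266 fell in DESeq2. No paired analysis was made. The study randomized littermates to treatment, but the litter of each mouse is not given in the sources used here. Replicate number 5 occurs in both groups, and nothing marks it as a pair. Depth limited Fcgr4 and the immunoglobulin chains, with as few as 3 counts of Fcgr4 in a void library.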
